A study of Mus musculus with 12 samples.

Results

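The hyaluronan genes described here are 10 genes for the synthesis, binding and breakdown of this matrix sugar, followed in fibroblasts on gels that differ in stiffness and stress relaxation. They were taken by name from the deposited count table, 10 of the 33246 genes listed: the synthase genes Has1, Has2 and Has3, the receptor gene Cd44, the breakdown genes Hyal1, Hyal2, Cemip and Tmem2 (listed under its newer symbol Cemip2), and the genes of the binding proteins versican (Vcan) and RHAMM (Hmmr). All 10 had counts in each of the 12 samples and passed the filter on low counts.

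The cells were primary ear fibroblasts of mice 1 month of age, expanded to passage 2, of which 500000 were seeded per sample and collected after 48 h for sequencing of polyA RNA. The 4 groups of 3 samples were 2-kPa elastic, 20-kPa elastic, 2-kPa viscoelastic and 20-kPa viscoelastic alginate gels. The elastic gels were crosslinked covalently and hardly relax under load, and the viscoelastic gels were crosslinked ionically and relax slowly, so the crosslinking chemistry and the relaxation cannot be told apart. For ear fibroblasts the study's methods name male and female C57BL/6 mice as well as Tau-EGFP reporter mice, without saying which gave these RNA samples. No group carried a further treatment or allele by its labels, and whether the 3 replicates of a group came from separate animals is not stated, so p-values measure the spread between these samples.

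Totals ran from 36626221 to 43612804 counts per sample. Levels are given in counts per 1000000 counts of a library (CPM) after TMM scaling, which corrects for differences in library composition, and differences as log2 fold changes with their standard error (SE). A gene was called when its p from edgeR's quasi-likelihood test, adjusted by the Benjamini-Hochberg method over the 14542 tested genes, was under 0.05. The 8 fibroblast markers were high throughout, summing to 19732 to 24844 CPM with none at 0. Between gel types at 20 kPa 3 of the 8 rose and 1 fell, where 33.5% of all tested genes were called. Markers of keratinocytes, endothelium, leukocytes, melanocytes, Schwann cells and skeletal muscle summed to at most 5.07 CPM each, with the melanocyte marker Tyr at 0. The 3 markers of smooth muscle and pericytes summed to 20.3 to 20.9 CPM on 2-kPa elastic, 30.1 to 33.1 on 20-kPa elastic, 27.3 to 33.2 on 2-kPa viscoelastic and 24.1 to 27.9 on 20-kPa viscoelastic gels. Most of this sum was Cnn1, with group means of 18.7, 28.3, 27.2 and 23.8 CPM in that order. Myh11 had 1.15, 3.08, 2.1 and 1.34 CPM, and Rgs5 had 0.821, 0.526, 0.934 and 0.671 CPM. Of the 6 chondrocyte markers, Col2a1 had group means of 2417 to 3023 CPM, Acan, Hapln1, Sox9 and Col9a1 were also present, and Matn1 stayed at or near 0. The chondrocyte sum was 4606 to 5874 CPM on 2-kPa elastic, 4189 to 4269 on 20-kPa elastic, 4430 to 5602 on 2-kPa viscoelastic and 4349 to 5686 on 20-kPa viscoelastic gels, and the part of either cell type in the results below was not tested. In such bulk samples, fewer cells of a type and less RNA per cell cannot be told apart.

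Hyaluronan is a long unsulfated polysaccharide that synthases in the plasma membrane build from UDP-sugars and extrude directly into the space around the cell. There it forms a hydrated coat together with proteoglycans such as versican, is bound at the cell surface by CD44, and is cut into fragments by hyaluronidases. In fibroblasts this coat is known to affect adhesion, migration and division, and its turnover is a feature of wounds and of connective tissue under load.

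Across the pathway, most genes called between gel types were lower on the viscoelastic gels. At 2 kPa, 4 of the 10 genes were called between viscoelastic and elastic gels, against 19.9% of all tested genes: Has2, Cemip2 and Hmmr fell and Cemip rose. At 20 kPa, 5 of 10 were called against 33.5% of all tested genes, and Has1, Has2, Cd44, Vcan and Hmmr all fell. Averaged over both stiffnesses, 6 of 10 were called (40% of all genes), with Has1, Has2, Cd44, Cemip2, Vcan and Hmmr lower and none higher. Over the 10 genes the median log2 fold change was -0.22 at 2 kPa, -0.30 at 20 kPa and -0.35 for the average, where the medians of all tested genes were -7.5e-05, 0.016 and 0.0097.

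With stiffness, hyaluronan genes moved in both directions on elastic gels. From 2 to 20 kPa on elastic gels, 5 of 10 genes were called against 14% of all tested genes: Has1, Cd44 and Hmmr rose while Has2 and Hyal1 fell. On viscoelastic gels edgeR called 0 of 10, against 2.28% of all genes. Has2, Vcan and Cemip had an unadjusted edgeR p under 0.05, as did 2768 of the 14542 tested genes. DESeq2 called Cemip and Vcan there, among 760 of 23149 genes. The interaction, the log2 change with stiffness seen on viscoelastic gels less the one seen on elastic gels, was called for 2 of 10 (Has1 and Cemip), against 7.56% of all genes. The comparison of gel types at 20 kPa and that of stiffness on elastic gels share the 20-kPa elastic samples, so the values of a gene in both are not independent.

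**Figure D1:**
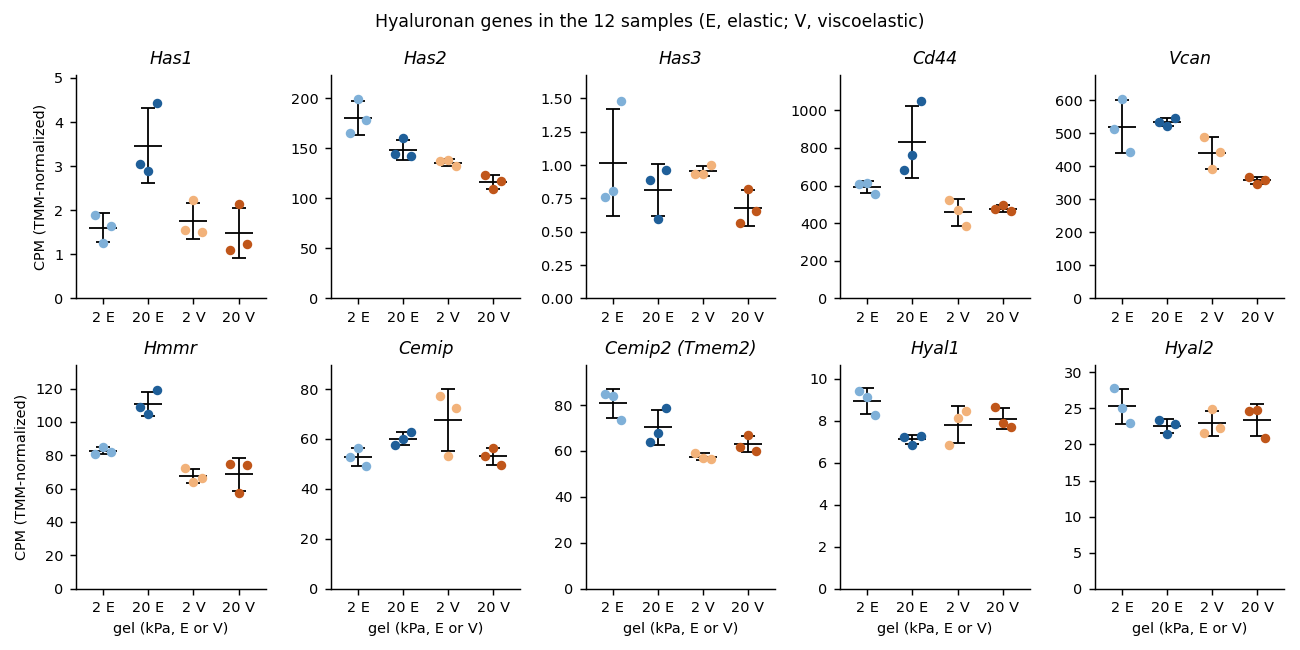
CPM of each of the 10 genes (vertical axes from 0, one scale per gene) in the 3 samples of each gel group, 2 E and 20 E for elastic and 2 V and 20 V for viscoelastic gels of 2 and 20 kPa, with dots for samples and black bars for the mean ± SD. Cd44, Hmmr and Has1 stand highest on 20-kPa elastic gels, Has2 is lowest on 20-kPa viscoelastic gels, and Hyal2 covers 20.9 to 27.9 CPM with the groups overlapping.

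**Figure D2:**
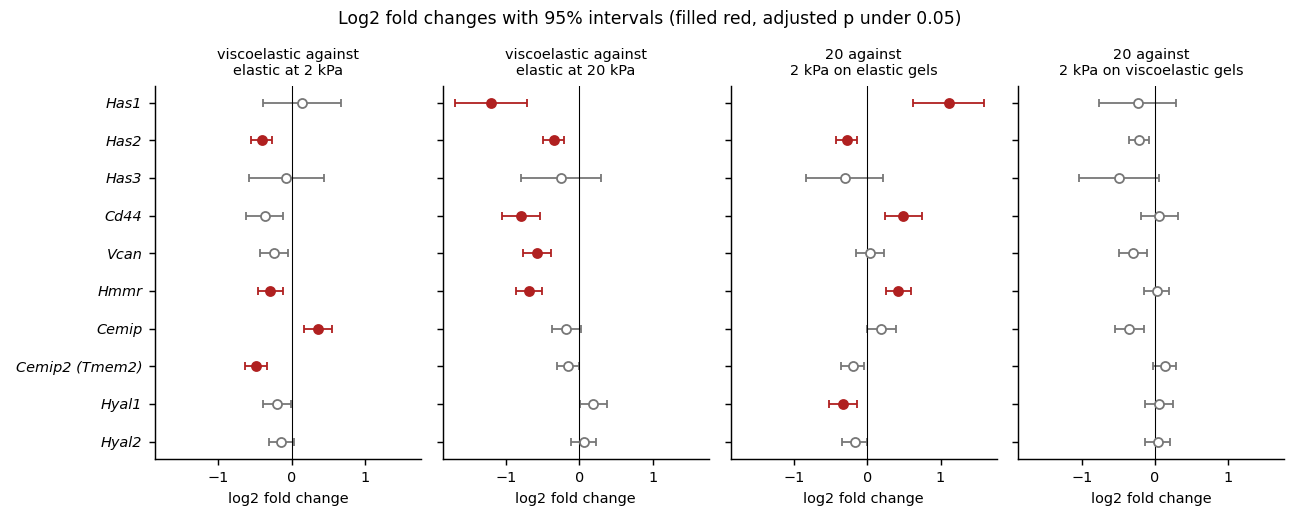
Log2 fold changes (horizontal axis) of the 10 genes in the 4 comparisons of 2 groups, with approximate 95% intervals from the normal distribution, filled red where the adjusted p is under 0.05 and open otherwise. The red points number 4, 5, 5 and 0 from left to right.

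The synthases differ widely in level. Has2 makes the long polymer and is the main synthase of many mesenchymal cells, and here it reached 34.3 CPM per kb of exon on average over the 12 samples, against 0.46 for Has1 and 0.136 for Has3. Divided by length in this way, Has2 made up 98.8% ± 0.31 (SD, n = 3) of the synthase transcripts on 2-kPa elastic gels and 97.5% ± 0.694 on 20-kPa elastic gels. On viscoelastic gels it was 98.3% ± 0.239 at 2 kPa and 98.4% ± 0.621 at 20 kPa.

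Has2 (chr15:56665627-56694539, minus strand; all gene positions are from GENCODE M21 on mm10) counted 165, 199 and 178 CPM on 2-kPa elastic gels and 144, 160 and 142 CPM on 20-kPa elastic gels. On viscoelastic gels it counted 137, 138 and 132 CPM at 2 kPa and 123, 109 and 117 CPM at 20 kPa. The 4 groups did not overlap: each 2-kPa elastic sample was above each 20-kPa elastic one, these were above the 2-kPa viscoelastic samples, and those above the 20-kPa viscoelastic samples. Has2 fell on viscoelastic against elastic gels by 0.41 at 2 kPa on the log2 scale (SE 0.073, adjusted p = 0.00161). At 20 kPa it fell by 0.35 (SE 0.073, adjusted p = 0.00222), and both calls held under each alternative at the same threshold. The interaction of 0.056 (95% interval -0.15 to 0.26) was not called.

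With stiffness, Has2 fell by 0.28 on elastic gels (SE 0.073, adjusted p = 0.0206). This call was lost without 2-kPa elastic replicate 2 (adjusted p = 0.108), 20-kPa elastic replicate 1 (0.0727) or 20-kPa elastic replicate 3 (0.0918). On viscoelastic gels the difference was -0.22 (95% interval -0.37 to -0.077), with groups that did not overlap, and its adjusted p of 0.117 missed the threshold. Has2 thus had its highest level on the soft elastic gel and its lowest on the stiff viscoelastic one, with group means of 180 ± 17.2 and 116 ± 7.02 CPM (SD, n = 3). The antisense gene Has2os, which shares 182 bases with the Has2 exons (4.3%), had group means of 1.08 to 1.78 CPM and was not called in any comparison.

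Has1 (chr17:17843323-17855205, minus strand), a synthase gene known to respond to inflammatory signals, was read at low depth, with 47 to 180 counts per sample. It stood at 1.9, 1.25 and 1.65 CPM on elastic gels of 2 kPa and at 3.04, 2.9 and 4.44 CPM on those of 20 kPa. It stood at 1.54, 2.23 and 1.5 CPM on viscoelastic gels of 2 kPa and at 1.1, 2.14 and 1.23 CPM on those of 20 kPa. The 20-kPa elastic samples were above all 9 others, which overlapped among themselves.

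Has1 rose with stiffness on elastic gels by 1.11 on the log2 scale (SE 0.25, adjusted p = 0.00933), the largest change of the 10 genes in that comparison. Without 20-kPa elastic replicate 3, its highest sample, the change was 0.89 with an adjusted p of 0.0512. On viscoelastic gels the difference between stiffnesses was -0.24 (95% interval -0.76 to 0.29). At 20 kPa Has1 fell on viscoelastic against elastic gels by 1.21 (SE 0.25, adjusted p = 0.00233), also without any 1 sample (adjusted p up to 0.015), while at 2 kPa the difference was 0.14 (95% interval -0.39 to 0.66). Its share of the synthase transcripts was 0.837% ± 0.243 (SD, n = 3) on 2-kPa elastic, 2.14% ± 0.61 on 20-kPa elastic, 1.19% ± 0.254 on 2-kPa viscoelastic and 1.2% ± 0.525 on 20-kPa viscoelastic gels.

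The interaction of Has1 was -1.34 (SE 0.37, adjusted p = 0.0379). It was called in 5 of the 12 fits that left out 1 sample and not with the replicate number as a block (adjusted p = 0.0618). The samples whose omission ended the call were 2-kPa elastic replicates 2 and 3, 20-kPa elastic replicate 3, 2-kPa viscoelastic replicates 1 and 2, and 20-kPa viscoelastic replicates 1 and 3, with adjusted p values up to 0.0932. The average viscoelastic effect of -0.54 (SE 0.18, adjusted p = 0.0313) was likewise called in 5 of the 12 such fits. It was lost without 2-kPa elastic replicates 1 or 3, 20-kPa elastic replicate 3, 2-kPa viscoelastic replicates 1 or 3, or 20-kPa viscoelastic replicates 1 or 3, with adjusted p values up to 0.0911.

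The sequence before the Has1 start is shown because this gene changed by the largest factor. It runs over the 250 bases upstream of the RefSeq start (chr17:17855189-17855438, GRCm38.p6, minus strand, 5′ to 3′), and the capitals mark a CCAAT box and a cAMP response element of the letters TGACGTCA.
Has1: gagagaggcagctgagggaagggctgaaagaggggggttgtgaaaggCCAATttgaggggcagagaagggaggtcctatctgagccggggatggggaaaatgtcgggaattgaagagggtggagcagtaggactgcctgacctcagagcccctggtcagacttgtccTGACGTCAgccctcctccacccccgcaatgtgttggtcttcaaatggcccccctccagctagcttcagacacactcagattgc
The response element begins 83 bases before the start, and 1.79% of the 32851 RefSeq windows of this kind (250 bases before to 50 after a start, both strands) hold it. CCAAT, 203 bases before the start, occurs in 37.4% of windows. The response element was added to the motifs searched after this sequence had been read. The letters GGAATG searched for TEAD, in 14.7% of windows, are not in this one. Neither are the letters TGANTCA searched for AP-1 (7.81% of windows) nor the letters TATAAA of a TATA box (13.6% of windows). The GC box and the E2F site TTTNGCGC (1.38% of windows) are also not found here. A TTTGAA on the other strand begins 45 bases before the start.

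Has3 (chr8:106870242-106884566, plus strand) was near the limit of detection, with 24 to 54 counts per sample and group means of 0.679 to 1.02 CPM. It was called in no comparison, and its intervals were wide, from -0.59 to 0.45 for viscoelastic against elastic at 2 kPa and from -0.81 to 0.30 at 20 kPa. Between stiffnesses on viscoelastic gels its difference was -0.49 (95% interval -1.04 to 0.051). A part of its exons (352 bases, 5.52%) lies opposite Chtf8, and whether the counting used strand is not stated.

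The sugars for hyaluronan come from enzymes of the hexosamine and uronic acid routes. Changes given without an error for this and the other 5 wider gene lists are called values of the edgeR fit, 76 in all over the 4 pair comparisons, with SEs of 0.05 to 0.17 and adjusted p values of at most 0.0476. Of the 7 enzyme genes for these precursors, 4 were called between gel types at 20 kPa, where 33.5% of all tested genes were: Gfpt2, a rate-limiting amidotransferase of the hexosamine route, rose by 0.33 on the log2 scale, while its paralog Gfpt1 fell by 0.20, Uap1 by 0.18 and Ugdh, which makes UDP-glucuronic acid, by 0.32. With stiffness on elastic gels, Ugdh rose by 0.24 and Gfpt2 fell by 0.38. The Gfpt2 values stayed called under each alternative, whereas the Uap1 call was lost with libraries scaled by total counts alone, with no filter on low counts and with the replicate block, the Ugdh call on elastic gels with the replicate block, and the Gfpt1 call with a correction for gene length. Single samples also decided 3 of these calls. Gfpt1 was lost without 20-kPa elastic replicate 2 (adjusted p = 0.0868) or 20-kPa viscoelastic replicate 2 (0.0754). Uap1 was lost without any 1 of the 2-kPa elastic samples (0.0501 to 0.051), 20-kPa elastic replicates 2 or 3, or 20-kPa viscoelastic replicates 2 or 3 (0.093 to 0.16), so that 2 of the 7 enzyme genes were called without 20-kPa elastic replicate 2. Ugdh on elastic gels was lost without any 1 of the 2-kPa elastic samples, 20-kPa elastic replicates 2 or 3, or 20-kPa viscoelastic replicates 1 or 3, and stood at 0.17 (adjusted p = 0.218) without 20-kPa elastic replicate 3. The Ugdh fall at 20 kPa was not lost in any of these fits. Between gel types at 2 kPa edgeR called 0 of the 7 (19.9% of all tested genes) and DESeq2 1 (3095 of 23149 genes). An unadjusted edgeR p under 0.05 was found for 3 of the 7, and for 4968 of the 14542 tested genes.

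Cd44 (chr2:102811141-102901665, minus strand), the main surface receptor of hyaluronan, had the highest level per length of the 10 genes, at 87.1 CPM per kb on average. It counted 610, 612 and 555 CPM on elastic gels of 2 kPa and 685, 760 and 1049 CPM on those of 20 kPa. On viscoelastic gels it counted 525, 469 and 383 CPM at 2 kPa and 473, 497 and 463 CPM at 20 kPa. All 6 viscoelastic samples were below all 6 elastic ones, and the 2 viscoelastic groups overlapped.

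At 20 kPa Cd44 fell on viscoelastic against elastic gels by 0.80 on the log2 scale (SE 0.13, adjusted p = 0.00054), in 3 of 3 samples. It fell by at least 0.60 when any 1 sample was left out. At 2 kPa the difference was -0.37 (SE 0.13) with an adjusted p of 0.0637, although the groups did not overlap. This value passed the threshold with DESeq2 (0.0352), with no filter on low counts (0.00628), with the 6 samples of the comparison fitted alone (0.0444), and without 20-kPa elastic replicate 1 (0.0487), 20-kPa elastic replicate 3 (0.0146) or 2-kPa viscoelastic replicate 1 (0.0286). These are 3 of 7 other settings and 3 of the 12 fits that left out 1 sample. Over those 12 fits it ran from -0.48 to -0.25, with adjusted p values up to 0.238.

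Cd44 rose with stiffness on elastic gels by 0.49 (SE 0.13, adjusted p = 0.0239). Without 20-kPa elastic replicate 3, which held 42553 counts of Cd44, the change was 0.29 with an adjusted p of 0.126. The call was also lost without 2-kPa elastic replicates 1, 2 or 3, with adjusted p values of 0.0625, 0.0557 and 0.0879. On viscoelastic gels the difference was 0.058 (95% interval -0.20 to 0.32), and the interaction of -0.43 (95% interval -0.80 to -0.062) had an adjusted p of 0.187. Counts per gene do not separate the splice forms of Cd44.

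CD44 is tied to actin by ezrin, radixin and moesin. At 20 kPa all 3 of these genes fell on viscoelastic against elastic gels, where 33.5% of all tested genes were called in either direction. Msn fell by 0.47, Ezr by 0.38 and Rdx by 0.20 on the log2 scale. Msn went from 923 to 668 CPM and Ezr from 81 to 62.3 CPM between the group means, and the Rdx call was lost with total counts alone and with the replicate block. Rdx was also lost without 2-kPa elastic replicate 2, 20-kPa elastic replicates 2 or 3, or 20-kPa viscoelastic replicates 2 or 3 (adjusted p = 0.0516 to 0.161). With stiffness on elastic gels Msn rose by 0.34 and Ezr by 0.47. The Msn rise was lost without 2-kPa elastic replicates 2 (0.0524) or 3 (0.0516) and stood at 0.25 (0.0793) without 20-kPa elastic replicate 3. Nf2, which encodes the related merlin, went the other way at 20 kPa, higher on viscoelastic gels by 0.16 (adjusted p = 0.0655). Its group means there were 79.9 CPM on elastic and 89.4 CPM on viscoelastic gels. Nf2 was not called in the 4 pair comparisons fitted to all samples. At 20 kPa it passed with the gene length correction, with the 6 samples alone and without 2-kPa viscoelastic replicate 2. Between gel types at 2 kPa edgeR called 0 of the 4 genes in the fit of all samples, against 19.9% of all tested genes. An unadjusted edgeR p under 0.05 was found there for 1 of the 4, and for 4968 of the 14542 tested genes.

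Hmmr (chr11:40701395-40733422, minus strand) encodes RHAMM, a hyaluronan-binding protein that also sits on spindle microtubules with TPX2 and is made in dividing cells. It counted 80.8, 85.2 and 82.1 CPM on elastic gels of 2 kPa and 109, 105 and 119 CPM on those of 20 kPa. It counted 72.1, 64.2 and 66.5 CPM on viscoelastic gels of 2 kPa and 74.8, 57.2 and 73.9 CPM on those of 20 kPa. As for Cd44, all viscoelastic samples were below all elastic ones, the 20-kPa elastic samples stood alone at the top, and the viscoelastic groups overlapped.

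Hmmr had the lowest adjusted p of the 10 genes at 20 kPa, where it fell on viscoelastic gels by 0.69 on the log2 scale (SE 0.088, adjusted p = 0.00013). At 2 kPa it fell by 0.29 (SE 0.088, adjusted p = 0.03). That call was lost without 2-kPa elastic replicates 1, 2 or 3 or 2-kPa viscoelastic replicates 2 or 3, with adjusted p values of 0.0585 to 0.0986. With stiffness Hmmr rose by 0.42 on elastic gels (SE 0.087, adjusted p = 0.00547), also without any 1 sample. On viscoelastic gels the difference was 0.021 (95% interval -0.15 to 0.19). The interaction was -0.40 (SE 0.12) with an adjusted p of 0.0637, and it passed with DESeq2 (0.028) and with no filter on low counts (0.0124).

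The sequence before the Hmmr start is shown for its repeated CCAAT boxes, an element known from genes of dividing cells. It covers the 250 bases upstream of the RefSeq start (chr11:40733438-40733687, GRCm38.p6, minus strand, 5′ to 3′), and the capitals mark ATTGG, which is CCAAT read on the other strand.
Hmmr: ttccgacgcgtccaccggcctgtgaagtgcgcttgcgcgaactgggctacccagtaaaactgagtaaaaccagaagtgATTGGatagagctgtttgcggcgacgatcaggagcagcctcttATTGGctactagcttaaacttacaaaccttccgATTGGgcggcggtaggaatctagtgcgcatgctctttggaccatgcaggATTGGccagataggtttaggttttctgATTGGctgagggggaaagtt
The 5 boxes begin 172, 129, 96, 47 and 20 bases before the start. Of the 32851 windows, 89 (0.271%) hold at least 5. A GC box of the letters GGGCGG (in 35.7% of windows) shares bases with the box at 96, and the letters TTTGAA of a cell cycle homology region (CHR, in 17.9% of windows) begin 8 bases after the start. Of the 18 mitotic genes described next, 15 have a RefSeq window: 14 of them (93.3%) hold CCAAT and 11 (73.3%) TTTGAA in at least 1 window, against 41.1% and 20.2% of all 27025 genes with a window. These matches are letters in a window and were not tested as binding sites.

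A list of 18 mitotic genes was set beside Hmmr. At 20 kPa all 18 fell on viscoelastic against elastic gels, where 33.5% of all tested genes were called in either direction, with a median log2 fold change of -0.60 against 0.016 for all tested genes. The falls were 0.84 for Bub1, 0.78 for Mki67, 0.72 for Kif11, 0.71 for Top2a and Cenpe, 0.70 for Cenpf, 0.66 for Prc1, 0.63 for Ccnb1 and 0.61 for Aurkb. They were 0.59 for Aurka and Kif20a, 0.57 for Tpx2, 0.53 for Plk1 and Cdc20, 0.43 for Ube2c, 0.41 for Ccnb2, 0.36 for Birc5 and 0.34 for Cdk1. The fall of Hmmr by 0.69 lay within this range.

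At 2 kPa 8 of the 18 mitotic genes fell (Bub1, Mki67, Kif11, Top2a, Cenpf, Prc1, Aurkb and Plk1), by 0.32 to 0.49, with a list median of -0.25, where 19.9% of all tested genes were called. The count was 15 without 20-kPa viscoelastic replicate 2 and 5 without 2-kPa elastic replicate 1. With stiffness on elastic gels 14 of 18 rose, with a median of 0.35, where 14% of all tested genes were called. The count was 5 without 20-kPa elastic replicate 3, 6 without 2-kPa elastic replicate 3, 8 without 2-kPa elastic replicate 1 and 9 without 2-kPa elastic replicate 2. The genes lost in these 4 fits still differed by 0.28 to 0.44 on the log2 scale, with adjusted p values of 0.0502 to 0.106. On viscoelastic gels edgeR and DESeq2 called 0 of the 18, where edgeR called 2.28% of all tested genes, and the median was 0.042. An unadjusted edgeR p under 0.05 was found for 1 of the 18, and for 2768 of the 14542 tested genes. The part of a change in the share of dividing cells in the Hmmr values was not tested.

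**Figure D3:**
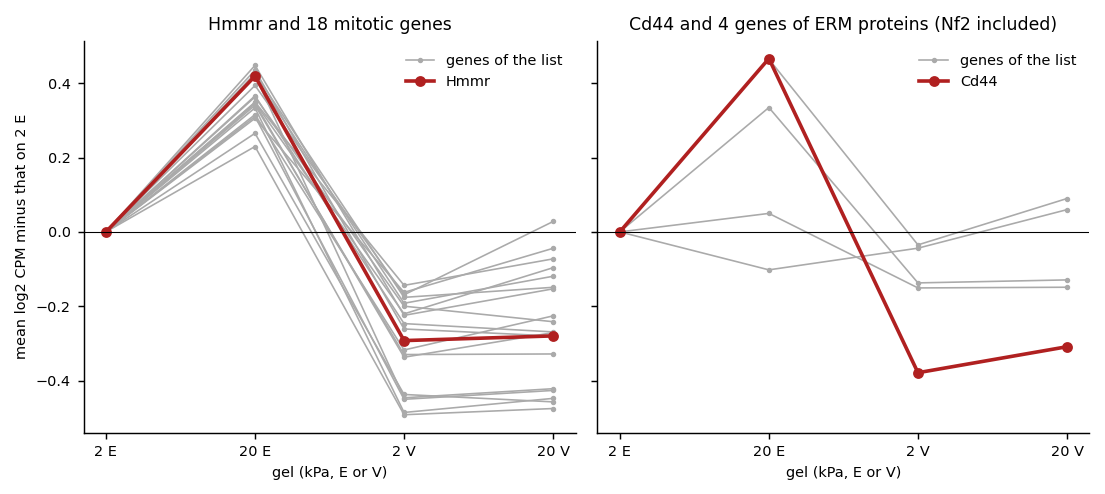
Mean log2 CPM of each gene in the 4 groups minus its mean on 2-kPa elastic gels (vertical axis), for Hmmr (red) with the 18 mitotic genes (grey) on the left and Cd44 (red) with Ezr, Rdx, Msn and Nf2 (grey) on the right; lines join the groups of 1 gene and are no time course. Hmmr runs among the mitotic genes, up on 20-kPa elastic gels and down on both viscoelastic gels, and Cd44 lies below the 4 cytoskeletal linker genes on viscoelastic gels.

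Vcan (chr13:89655312-89742509, minus strand) encodes versican, a large chondroitin sulfate proteoglycan that binds hyaluronan and swells the coat around the cell. It counted 512, 603 and 444 CPM on elastic gels of 2 kPa and 535, 523 and 547 CPM on those of 20 kPa. On viscoelastic gels it counted 488, 392 and 443 CPM at 2 kPa and 367, 347 and 357 CPM at 20 kPa. The 20-kPa viscoelastic samples were below all 9 others, while the 2-kPa groups overlapped.

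At 20 kPa Vcan fell on viscoelastic against elastic gels by 0.58 on the log2 scale (SE 0.097, adjusted p = 0.000529), from a mean of 535 ± 11.5 to 357 ± 9.87 CPM (SD, n = 3). The value lay between -0.60 and -0.56 when any 1 sample was left out, and between -0.60 and -0.44 under the other alternatives, and stayed called. At 2 kPa the difference was -0.24 (95% interval -0.43 to -0.047, adjusted p = 0.0976), which passed without 2-kPa elastic replicate 3 (0.0221) or 2-kPa viscoelastic replicate 1 (0.0402). It stood at -0.12 (adjusted p = 0.437) without 2-kPa elastic replicate 2 and at -0.11 with the gene length correction. Between stiffnesses the differences were 0.042 on elastic gels (95% interval -0.15 to 0.23) and -0.30 on viscoelastic gels (95% interval -0.50 to -0.11, adjusted p = 0.105). The latter passed with DESeq2 (0.0395) and with no filter on low counts (0.0233), and the interaction of -0.35 had an adjusted p of 0.144 and passed without 2-kPa elastic replicate 2 (0.0396).

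Versican is cut by ADAMTS proteases, and at 2 kPa 3 of the 6 listed genes of this group moved by more than any of the 10 hyaluronan genes. Of the 6, edgeR called 4 between gel types at 2 kPa and 2 at 20 kPa, against 19.9% and 33.5% of all tested genes. With stiffness it called 3 on elastic and 1 on viscoelastic gels, against 14% and 2.28%. Adamts9 had group means of 85.1 CPM on 2-kPa elastic, 34.4 on 20-kPa elastic, 43 on 2-kPa viscoelastic and 66.4 on 20-kPa viscoelastic gels. It fell on viscoelastic gels by 0.98 on the log2 scale at 2 kPa and rose by 0.95 at 20 kPa, with an interaction of 1.93 (SE 0.12, adjusted p = 1.35e-06). Adamts15 fell by 0.87 at 2 kPa and rose by 0.67 at 20 kPa, with an interaction of 1.53 (SE 0.23, adjusted p = 0.000929). Adamts5 rose by 1.32 at 2 kPa and, with stiffness on elastic gels, by 0.98, with an interaction of -0.99 (SE 0.22, adjusted p = 0.0139). Adamts4 fell by 0.42 at 2 kPa. With stiffness Adamts9 fell by 1.31 and Adamts15 by 1.17 on elastic gels, and Adamts9 rose by 0.63 on viscoelastic gels. No other gene of the 6 wider lists was called there by edgeR in the fit of all samples, while DESeq2 also called 1 gene of the other binding proteins, and edgeR with no filter on low counts called 1 of these and a further ADAMTS gene. Without 2-kPa viscoelastic replicate 2 edgeR called 3 of the other binding genes there, and without 20-kPa viscoelastic replicate 2 it called 1 of them and 1 mitotic gene.

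Of 23 further genes of hyaluronan-binding proteins, 22 had a count and 15 were tested. Between gel types edgeR called 5 of the 15 at 2 kPa and 4 at 20 kPa, against 19.9% and 33.5% of all tested genes. With stiffness on elastic gels it called 2, against 14%. At 2 kPa Ptx3, whose product crosslinks hyaluronan matrices, rose on viscoelastic gels by 0.57 (549 to 815 CPM) and Itih2, a heavy chain gene of the inter-alpha-inhibitor, by 0.37. Acan, which encodes aggrecan, fell there by 0.47 (1456 to 1053 CPM), Tlr2 by 0.34 and the receptor gene Layn by 0.21. At 20 kPa the link protein gene Hapln1 rose by 0.36 (212 to 271 CPM), while Hapln4 fell by 0.62, Tlr4 by 0.35 and Layn by 0.20. With stiffness on elastic gels Acan fell by 0.50 and Hapln1 by 0.38. The latter was lost without 2-kPa elastic replicates 2 or 3 or any 1 of the 20-kPa elastic samples (adjusted p = 0.0525 to 0.116), and the Hapln1 rise at 20 kPa without 20-kPa elastic replicate 3 (0.0698) or 20-kPa viscoelastic replicate 3 (0.0551). Tlr2 at 2 kPa was lost without 2-kPa viscoelastic replicates 1 (0.0673) or 3 (0.0612) and stood at -0.23 (0.144) without 2-kPa elastic replicate 1. Acan and Hapln1 are also in the chondrocyte marker list. There Col9a1 rose with Hapln1 at 20 kPa by 0.87 and fell with Acan and Hapln1 with stiffness on elastic gels by 0.69, while Col2a1 and Sox9 were not called in the pair comparisons. The part of such cells in the Acan and Hapln1 values was not tested.

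Of the breakdown genes, Cemip rose and Cemip2 fell between gel types at 2 kPa, and Hyal1 fell with stiffness on elastic gels. Cemip (chr7:83932857-84086502, minus strand) encodes a protein needed for the uptake and depolymerization of hyaluronan in skin fibroblasts. On elastic gels it counted 52.8, 56.2 and 49.1 CPM at 2 kPa and 57.4, 60.1 and 62.8 CPM at 20 kPa. On viscoelastic gels it counted 77, 53.3 and 72.2 CPM at 2 kPa and 53.1, 56.4 and 49.6 CPM at 20 kPa. Replicate 2 of the 2-kPa viscoelastic group lay among the elastic samples and the other two lay above all samples of the other groups.

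At 2 kPa Cemip rose on viscoelastic against elastic gels by 0.36 on the log2 scale (SE 0.10, adjusted p = 0.0265), and no other of the 10 genes was called as higher between gel types. The groups overlapped, and the call was lost with the 6 samples of the comparison alone (0.0557) and without 2-kPa elastic replicates 1 or 3 or 2-kPa viscoelastic replicates 1 or 3 (0.0806 to 0.0999). At 20 kPa the difference was -0.18 (95% interval -0.38 to 0.026), which passed without 2-kPa viscoelastic replicate 2 (0.0403).

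Between stiffnesses the Cemip differences were 0.19 on elastic (95% interval -0.017 to 0.39) and -0.35 on viscoelastic gels (95% interval -0.55 to -0.14, adjusted p = 0.0893). The latter passed with DESeq2 (0.0371), with no filter on low counts (0.00908) and without 2-kPa viscoelastic replicate 2 (0.0072). The interaction of -0.54 (SE 0.15, adjusted p = 0.039) was called in 4 of the 12 fits that left out 1 sample. It was lost without 2-kPa elastic replicates 1 or 3, 20-kPa elastic replicates 2 or 3, 2-kPa viscoelastic replicates 1 or 3, or 20-kPa viscoelastic replicates 1 or 3 (adjusted p up to 0.0996), and with the replicate block (0.0678). The average viscoelastic effect of 0.088 was not called (adjusted p = 0.365) and passed without 2-kPa viscoelastic replicate 2 (0.0159) and with a correction for gene length (0.21 on the log2 scale, 0.0266).

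Cemip2 (Tmem2, chr19:21778342-21858360, plus strand) is related to Cemip, and its membrane protein is known as a cell surface hyaluronidase. It counted 84.9, 84.1 and 73.6 CPM on elastic gels of 2 kPa and 63.8, 68 and 78.9 CPM on those of 20 kPa. It counted 59.2, 56.9 and 56.6 CPM on viscoelastic gels of 2 kPa and 61.9, 66.9 and 60 CPM on those of 20 kPa. The 2-kPa viscoelastic samples were below all 9 others, and the 20-kPa groups overlapped.

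At 2 kPa Cemip2 fell on viscoelastic against elastic gels by 0.49 on the log2 scale (SE 0.078, adjusted p = 0.000767), the lowest adjusted p of the 10 genes in that comparison. It fell by at least 0.45 when any 1 sample was left out, and by at least 0.41 under the other alternatives. At 20 kPa the difference was -0.16 (95% interval -0.31 to -0.0034, adjusted p = 0.137), which passed without 20-kPa elastic replicate 1 (0.0391). It stood at -0.065 without 20-kPa elastic replicate 3 (0.562) and with the gene length correction. Between stiffnesses it was -0.20 on elastic gels (adjusted p = 0.0967) and 0.13 on viscoelastic gels (adjusted p = 0.4), with an interaction of 0.33 (95% interval 0.12 to 0.55, adjusted p = 0.0832). The elastic difference and the interaction passed without 20-kPa elastic replicate 3 (0.026 and 0.0223), and the former stood at -0.12 (0.367) without 20-kPa elastic replicate 1.

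Hyal1 and Hyal2 encode the hyaluronidases of lysosomes and of the cell surface. Hyal1 counted 9.43, 9.13 and 8.24 CPM on elastic gels of 2 kPa and 7.21, 6.84 and 7.25 CPM on those of 20 kPa, and 6.82 to 8.66 CPM on viscoelastic gels. It fell with stiffness on elastic gels by 0.33 on the log2 scale (SE 0.096, adjusted p = 0.0315), with groups that did not overlap. That call was lost with the replicate block (0.0563) and without 2-kPa elastic replicates 1 or 2 or any 1 of the 20-kPa elastic samples (0.0671 to 0.12). In the other 3 pair comparisons Hyal1 differed by -0.20, 0.19 and 0.05 and was not called. The 0.19 was between gel types at 20 kPa, where the viscoelastic samples were above the elastic ones without overlap.

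A limit of Hyal1 is its place in the genome (chr9:107576927-107581710, plus strand). It shares 1920 bases of exon on the same strand with Naa80 (50.8% of the Hyal1 exons) and 159 bases with Hyal3, so reads there could be dropped or given to either gene. Naa80 rose on viscoelastic gels at 20 kPa by 0.39 (adjusted p = 0.013), where Hyal1 differed by 0.19 (adjusted p = 0.149). Hyal2 (chr9:107567945-107572779, plus strand) was called in no comparison, with group means of 25.3 ± 2.44, 22.5 ± 0.987, 22.9 ± 1.71 and 23.4 ± 2.24 CPM (SD, n = 3) on 2-kPa elastic, 20-kPa elastic, 2-kPa viscoelastic and 20-kPa viscoelastic gels. Its 95% intervals in the 4 pair comparisons lay between -0.33 and 0.23 on the log2 scale.

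Of 8 further breakdown genes, 5 had a count and 4 were tested. Between gel types edgeR called 2 of the 4 at 2 kPa and 1 at 20 kPa, against 19.9% and 33.5% of all tested genes. With stiffness on elastic gels it called 1, against 14%. Hexa and Gusb, exoglycosidase genes whose products trim hyaluronan fragments in lysosomes, fell on viscoelastic against elastic gels at 2 kPa by 0.40 and 0.37, and Gusb fell at 20 kPa by 0.21. The latter call was lost without 20-kPa elastic replicate 3 (adjusted p = 0.0594) or 20-kPa viscoelastic replicate 3 (0.0742). Hexa fell by 0.41 with stiffness on elastic gels and had an interaction of 0.54 (SE 0.092, adjusted p = 0.00228). Hyal3 had 10 to 22 counts per sample and was not called.

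**Figure D4:**
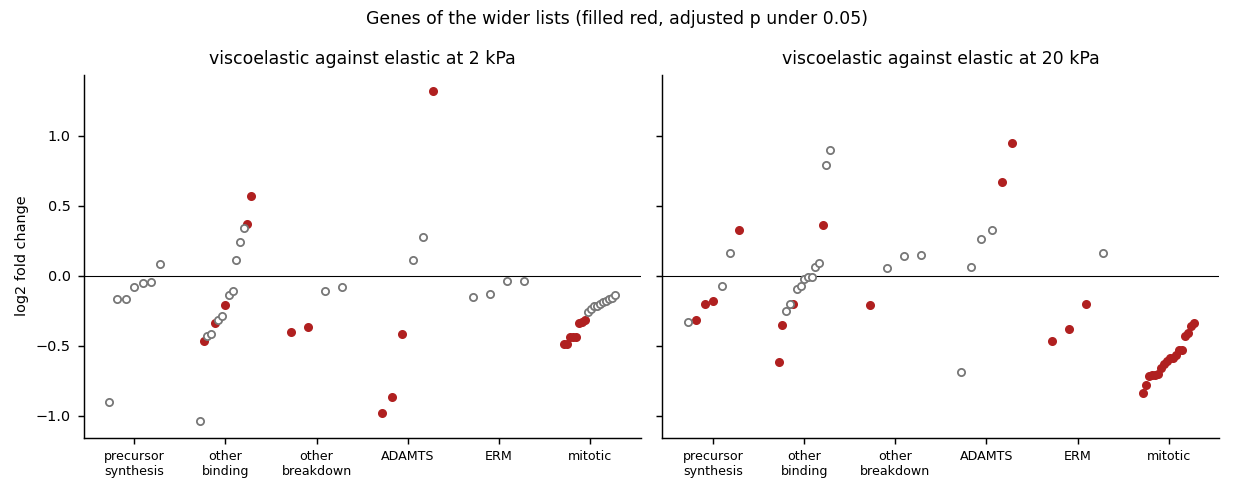
Log2 fold changes of the tested genes of the 6 wider lists (horizontal axis, one dot per gene, sorted within a list) for viscoelastic against elastic gels at 2 kPa on the left and 20 kPa on the right, filled red where the adjusted p is under 0.05. Mitotic genes lie below 0 in both panels, with 8 of 18 red at 2 kPa and 18 of 18 at 20 kPa, and the ADAMTS genes reach from -0.98 to 1.32 at 2 kPa.

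Divided by exon length, the 10 genes stood in the order Cd44 (87.1 CPM per kb), Has2 (34.3), Vcan (32), Hmmr (15.2), Cemip2 (7.97), Hyal2 (7.15), Cemip (4.77), Hyal1 (2.11), Has1 (0.46) and Has3 (0.136), as means over the 12 samples. Neighbours in this order can change place with the length used: by the longest transcript in place of all exons, Vcan (37.3) came above Has2 (34.3) and Cemip (8.2) above Hyal2 (7.93). The order also differed between groups: by the same exon length Vcan (37) stood above Has2 (35.1) on 20-kPa elastic gels. In each of the 4 groups Cd44 was first and Has3 last.

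Within the pathway the levels in log2 CPM ran together for some genes over the 12 samples, which share their 4 groups. The highest Pearson r between pairs of the 10 genes was 0.88 for Cd44 and Hmmr, followed by 0.78 for Has2 and Vcan and 0.77 for Has1 and Cd44. Cemip had no r above 0.33 with another of the genes. The 10 genes, the wider lists and the cell type markers were left out of a search for similar profiles among the tested genes. Of the rest, those most like Hmmr were Kif20b (r = 0.993), Diaph3 (0.993) and Racgap1 (0.990). For Cd44 they were Itgb1 (0.979), Ereg (0.976) and Ptgs1 (0.975), and for Has1 they were Cxcl2 (0.926), Emp1 (0.924) and F11r (0.910). For Has2 they were Xylt1 (0.967), Pde3a (0.962) and Asxl1 (0.957), and for Vcan they were Qars (0.963), Atp11a (0.959) and Syne3 (0.948). These correlations are descriptions over 12 samples in 4 groups and carry no test.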

How the data were processed

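RNA-seq of 12 samples in 4 groups, set by the sample titles, was used. Per the study's methods and the labels, the authors trimmed reads with Trimmomatic, aligned them to mm10 with STAR and used featureCounts with a GENCODE annotation to obtain raw counts per gene, which they deposited without normalization. The annotation release, the strand setting and the treatment of multi-mapping reads are not given in the sources used here.

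Counts were tested with edgeR 4.0.16 (R 4.3.3): filterByExpr (minimum count 10, minimum total 15), TMM, and a quasi-likelihood fit to all 12 samples with 1 coefficient per group, with a biological coefficient of variation of 7.5%. The script was tested on simulated data. Alternatives were DESeq2 1.42.0, other scalings, no filter, the replicate block, a gene length correction, the samples of a comparison alone, an adjusted p under 0.01, and each sample left out. The 10 genes and the lists were chosen with earlier results of these data known. List genes are named if called in at least 1 of the 4 pair comparisons. Exon lengths came from GENCODE M21 (mm10), promoters from RefSeq (GRCm38.p6), where 7 of the 10 genes matched. Intervals cover the spread between samples.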

Additional observations from a re-analysis of the deposited data

Results flagged for a closer look

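For Has1 the effect of stiffness differed between gel types, with a difference of -1.34 on the log2 scale (viscoelastic minus elastic gels; SE 0.37, edgeR adjusted p = 0.0379): 20-kPa samples were higher than the mean of the 2-kPa samples in 3 of 3 on elastic gels and in 1 of 3 on viscoelastic gels. For Cemip it differed by -0.54 (SE 0.15, edgeR adjusted p = 0.039), with 3 of 3 higher on elastic gels and 3 of 3 lower on viscoelastic gels. Both calls were lost in most fits that left out 1 sample.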

How the results depend on the processing

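Of the 1180 values of the 10 genes under the alternatives, 1077 kept direction and side of the threshold, 56 lost a call, 23 gained one and 24 reversed. The main fit called 4, 5, 5 and 0 of the 10 genes in the pair comparisons, 6 for the average effect and 2 for the interaction. Most of the 1180 values thus come from uncalled differences, which had no call to lose. The causes of the changes were not tested. The number of the 10 genes called at an adjusted p under 0.01 was 2 (main 4) between gel types at 2 kPa, 2 (main 5) with stiffness on elastic gels and 0 (main 2) for the interaction. With no filter on low counts the interaction gave 4 and stiffness on viscoelastic gels 2, and with the DESeq2 Wald test the latter also gave 2 (main 0). Leaving out 1 sample gave 2 to 5 between gel types at 2 kPa, 5 to 6 at 20 kPa, 2 to 5 with stiffness on elastic and 0 to 1 on viscoelastic gels, 5 to 7 for the average viscoelastic effect and 0 to 2 for the interaction.

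Under the replicate block the interaction gave 0 of the 10 genes, and Hyal1 with stiffness on elastic gels was also lost. Correlations of same-numbered samples ranged from -0.2 to 0.308, with 2 of 18 over 0.1. Both lay between the 2-kPa and 20-kPa viscoelastic groups, at 0.184 for replicate 1 and 0.308 for replicate 2. Whether same-numbered samples share an animal or a batch is not stated and cannot be decided from these values.

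The reversed log2 values were 0.034 for the average effect on Hyal1 with total counts alone and -0.0071 for Hyal2 between gel types at 20 kPa with the gene length correction, both from uncalled values. Without 1 sample, values that crossed 0 ranged from -0.072 to 0.29 for Has1 and from -0.24 to 0.29 for Has3 between gel types at 2 kPa. With stiffness on elastic gels they ranged from -0.48 to 0.048 for Has3 and from -0.06 to 0.16 for Vcan. With stiffness on viscoelastic gels they ranged from -0.056 to 0.17 for Cd44, -0.039 to 0.11 for Hyal1, -0.0075 to 0.11 for Hyal2 and -0.045 to 0.14 for Hmmr. For the average effect they ranged from -0.26 to 0.016 for Has3 and -0.035 to 0.04 for Hyal1, and for the interaction from -0.02 to 0.12 for Has2. None of these was called.

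Over all genes, calls with stiffness on viscoelastic gels numbered 331, against 653 with no filter, 760 with DESeq2, 154 with the block, 160 with the length correction, 38 with the 6 samples alone and 9 to 351 without 1 sample. At an adjusted p under 0.01 the counts were 1352, 2733, 855 and 9 for the pair comparisons in the order above, 3730 for the average effect and 400 for the interaction. Leaving out 1 sample gave 1545 to 3085 (main 2892), 3177 to 5381 (main 4866) and 1063 to 2369 (main 2029) for the other pair comparisons and 670 to 1182 (main 1100) for the interaction. With total counts alone, 1675 genes rose and 1258 fell between gel types at 2 kPa (main 1275 and 1617), 2937 and 1901 at 20 kPa (main 2527 and 2339) and 3538 and 2309 on average (main 2846 and 2971). With stiffness on viscoelastic gels the length correction gave 87 and 73 and the 6 samples alone 12 and 26 (main 230 and 101). Depth limits Has1 and Has3, which had 47 to 180 and 24 to 54 counts per sample.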
